A study of Mus musculus with 4 samples.

Results

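Cd59a (ENSMUSG00000032679) and Cd59b (ENSMUSG00000068686) are neighbouring mouse genes that encode the complement inhibitor CD59. They were taken by symbol from the gene tables of all 4 libraries, which makes 2 genes of the 32285 in each table. The pair was selected on its endothelial UMI counts, which in earlier results of the same libraries had differed between treatments in opposite directions, so every comparison of DOCA-salt with sham below is a description and not a test. Dissociated hippocampus and sensory cortex of mice of WT genotype were profiled cell by cell with a droplet kit (SeekOne) that tags the 3′ end of each polyadenylated transcript with a unique molecular identifier (UMI), so that each UMI stands for 1 captured molecule. Treated mice received DOCA-salt, the mineralocorticoid deoxycorticosterone acetate given with salt, which is used to produce hypertension in rodents, and the controls had a sham treatment. Strain, age, sex, dose and length of treatment are not given in the sources used here. The labels state 3 mice per group and give 1 library per tissue and treatment, without saying whether mice were pooled or whether hippocampus and cortex came from the same mice.

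Groups follow the library titles and pair a DOCA-salt with a sham library in each tissue. A separate treatment field goes against the title for 2 of the 4 libraries, cortex DOCA-salt and hippocampus sham, because that field follows the tissue. If the field were right and the titles wrong, no comparison between treatments within a tissue would exist. With 1 library in each group there was no replicate and no test, and every 95% interval covers counting error only. The 4 libraries held 11159 to 11402 barcodes and 66824217 to 70173987 UMIs, with a median of 5600 to 5891 UMIs per kept cell. Between 94 and 105 barcodes were shared by any pair of libraries. A cell class here is a gate on 8 marker genes: at least 3 detected, and a summed level of at least 0.3 times the median of cells with 5 or more detected. Between 90.2% and 92% of kept cells fell into a class. The endothelial gate was led by Flt1, Cldn5, Itm2a, Foxq1 and Hmcn1, and the leading genes of the oligodendrocyte gate included Kcna1, Ermn, Mal and Ugt8a, with no marker of another class among the 10 leading genes of either. Choroid plexus epithelium was held almost wholly by the hippocampus sham library, with 281 cells there against 3 in hippocampus DOCA-salt.

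CD59 sits on the outer face of the cell membrane by a glycosylphosphatidylinositol (GPI) anchor and carries a Ly6/uPAR (LU) domain. It binds complement components C8 and C9 as the membrane attack complex assembles and blocks the pore, which protects host cells from their own complement. Humans have a single gene for it, and its loss from blood cells that cannot make GPI anchors underlies haemolysis in paroxysmal nocturnal haemoglobinuria. The mouse gene was duplicated: Cd59a is known as the broadly expressed copy, with vascular endothelium among its sites, and Cd59b as the copy most abundant in testis.

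Both genes lie on the plus strand of chromosome 2 in GRCm38, with Cd59b at chr2:104069849-104091187 and Cd59a downstream at chr2:104095801-104115354, 4613 bases apart. Their coding sequences were 85% identical over 354 aligned bases. The last coding exons, 224 bases in Cd59b and 203 in Cd59a, were 78.5% identical over the aligned bases. They are shown because they were less alike than the coding sequence as a whole and lie towards the 3′ end that the kit reads. Capitals mark bases that differ or have no partner in the alignment, from the first base of the exon to the last coding base (GENCODE vM21, GRCm38, plus strand).
Cd59b chr2:104084422-104084645: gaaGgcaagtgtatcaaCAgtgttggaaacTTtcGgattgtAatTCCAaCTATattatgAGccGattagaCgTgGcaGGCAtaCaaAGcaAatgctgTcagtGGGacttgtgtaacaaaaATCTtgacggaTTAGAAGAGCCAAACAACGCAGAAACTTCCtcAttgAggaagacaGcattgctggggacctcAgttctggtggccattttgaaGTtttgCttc
Cd59a chr2:104113975-104114177: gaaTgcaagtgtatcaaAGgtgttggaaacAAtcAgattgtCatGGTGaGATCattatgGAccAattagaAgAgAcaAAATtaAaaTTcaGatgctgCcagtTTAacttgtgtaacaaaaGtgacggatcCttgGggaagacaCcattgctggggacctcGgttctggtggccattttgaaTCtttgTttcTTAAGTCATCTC

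Past the last coding base lay a stretch of near identity, found by the best local alignment. The stop codon and 3′ UTR of transcript Cd59b-201 are together 312 bases long. Of these, 286 aligned at 96.2% identity with the 1177 bases of stop codon and 3′ UTR in Cd59a-201. The longest stretch shared letter for letter by Cd59a-201 and Cd59b-201 was 104 bases. In Cd59b-201 shared 25-base windows reached the annotated end of the transcript, whereas the last 858 bases of Cd59a-201 held no 25-base window found in any Cd59b transcript. Transcripts Cd59b-203 and Cd59b-204 end further downstream, and their last 301 and 184 bases shared no such window with Cd59a. A read inside the shared stretch cannot be placed by its letters. The read length, the counting strand and the way such reads were assigned are not given in the sources used here, so the amounts of both genes are uncertain, and the part that read placement plays in the differences below was not tested.

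The promoter windows of the pair follow. They are printed because the copies differed in opposite directions, and each runs from 250 bases before to 50 bases after the RefSeq start on GRCm38.p6. An end-to-end alignment with gaps, which also pairs many bases of unrelated sequences, gave 57.8% identity. The Cd59b window lies inside the GENCODE interval of the gene, which starts at base 104069849. The Cd59a window spans its GENCODE start at base 104095801. The annotations thus place the Cd59b start differently. The windows may not match in position, so the identity cannot show how alike the promoters are. Capitals mark matches to 5 motifs searched on both strands, the CCAAT box, the TATA box TATAAA, the GC box GGGCGG, the CACCC box, and the half-site AGAACA bound by steroid receptors.
Cd59b promoter chr2:104070816-104071115: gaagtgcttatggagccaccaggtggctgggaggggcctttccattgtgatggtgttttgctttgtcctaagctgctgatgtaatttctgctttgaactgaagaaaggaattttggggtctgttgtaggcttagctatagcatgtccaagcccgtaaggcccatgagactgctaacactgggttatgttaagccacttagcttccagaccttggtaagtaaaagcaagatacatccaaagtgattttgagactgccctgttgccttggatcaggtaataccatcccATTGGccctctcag
Cd59a promoter chr2:104095551-104095850: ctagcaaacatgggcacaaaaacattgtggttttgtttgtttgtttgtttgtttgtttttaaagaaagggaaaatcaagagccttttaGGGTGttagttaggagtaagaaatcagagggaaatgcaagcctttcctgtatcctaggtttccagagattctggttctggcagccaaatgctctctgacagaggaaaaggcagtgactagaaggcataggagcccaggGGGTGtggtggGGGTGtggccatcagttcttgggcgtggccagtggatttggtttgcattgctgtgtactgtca

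The Cd59b window held CCAAT once, on the minus strand as ATTGG, and the Cd59a window held CACCC 3 times, on the minus strand as GGGTG. Among 32851 promoter windows of the same length, 37.4% held CCAAT and 57.5% held CACCC. The other motifs had no match in either window, against matches in 13.6% of all windows for TATAAA, 35.7% for GGGCGG and 19% for AGAACA.

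In endothelial cells, the lining of the vessels, Cd59a was the main copy in every library and was about 3 times lower in DOCA-salt than in sham libraries, while Cd59b was several times higher. Cd59a gave 407 UMIs in 956 hippocampus DOCA-salt cells, against 1138 in 858 hippocampus sham cells. Scaled to 1000000 UMIs of the class (CPM), that was 98.2 (95% interval 88.9 to 108) in DOCA-salt and 314 (296 to 333) in sham. In cortex, Cd59a stood at 91.1 CPM (80 to 103, 244 UMIs in 646 cells) in DOCA-salt and at 307 CPM (288 to 328, 917 UMIs in 679 cells) in sham. The levels of the DOCA-salt libraries thus lay together and well below those of the sham libraries, with no overlap of intervals. The DOCA-salt level was 3.2-fold lower (2.85 to 3.59) in hippocampus and 3.38-fold lower (2.93 to 3.9) in cortex.

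Cd59b gave 153 UMIs, 36.9 CPM (31.3 to 43.2), in hippocampus DOCA-salt endothelial cells, against 14 UMIs, 3.87 CPM (2.11 to 6.48), in hippocampus sham. In cortex it gave 92 UMIs, 34.3 CPM (27.7 to 42.1), in DOCA-salt and 13 UMIs, 4.36 CPM (2.32 to 7.45), in sham. Both DOCA-salt libraries were high and both sham libraries low, again without overlap. The ratio of DOCA-salt to sham was 9.55 (5.52 to 17.9) in hippocampus and 7.88 (4.39 to 15.4) in cortex. The intervals are wide because the sham counts were small. UMIs count tagged molecules and were not divided by transcript length.

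Among genes with at least 20 UMIs over both libraries, 2.78% of 11706 were at least 2-fold higher in hippocampus DOCA-salt endothelial cells and 1.38% at least 2-fold lower. In cortex the shares were 2.46% and 1.24% of 11242 genes. Cd59b stood as the 21st highest ratio in hippocampus and the 11th in cortex. Cd59a was the 34th lowest in hippocampus and the 21st lowest in cortex. These places were part of the reason the pair was picked. The median log2 ratio of all these genes was 0.05 in hippocampus and 0.03 in cortex, both close to 0.

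The higher Cd59b did not offset the lower Cd59a in molecules counted. Summed, the pair reached 135 CPM in DOCA-salt and 318 CPM in sham endothelial cells of hippocampus, a ratio of 0.425 (0.383 to 0.47). In cortex the sum was 125 CPM in DOCA-salt and 312 CPM in sham, a ratio of 0.402 (0.354 to 0.456). Cd59a was lower by 216 CPM in each tissue, and Cd59b was higher by 33 CPM in hippocampus and 30 CPM in cortex, equal to 15.3% and 13.9% of the Cd59a difference.

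**Figure D1:**
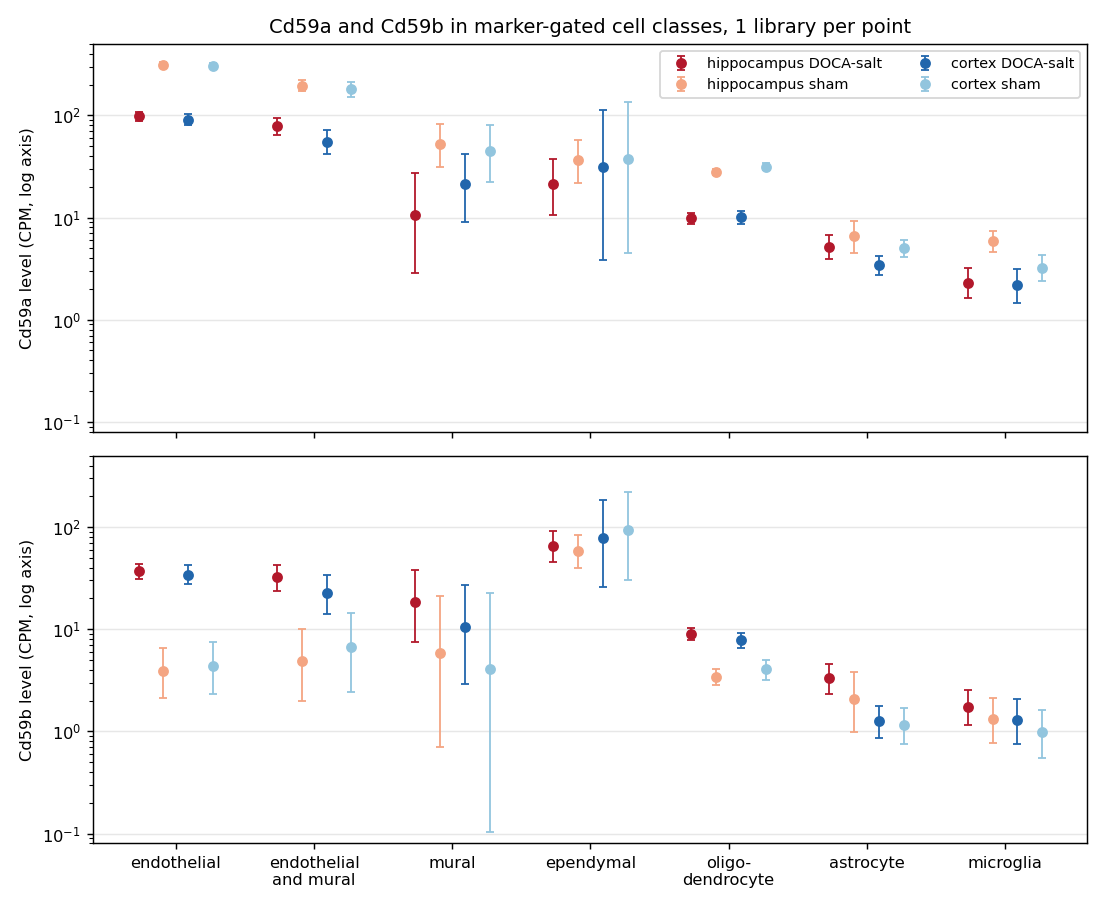
Level of Cd59a (top) and Cd59b (bottom) in CPM of the class, on a log axis, in 7 cell classes and 4 libraries; bars are exact 95% Poisson intervals of the UMI count and each point is 1 library. In endothelial cells and oligodendrocytes, DOCA-salt points lie below sham for Cd59a and above sham for Cd59b in both tissues, while ependymal cells carry more Cd59b than Cd59a in every library.

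The share of Cd59b among the UMIs of the pair needs no scaling between libraries. In endothelial cells it was 27.3% (exact binomial interval 23.7 to 31.2) in hippocampus DOCA-salt, against 1.22% (0.666 to 2.03) in hippocampus sham. In cortex it was 27.4% (22.7 to 32.5) in DOCA-salt and 1.4% (0.746 to 2.38) in sham. The tissues gave nearly the same share under the same treatment title. Cells were also split by depth. Below the common median of 3789 UMIs per cell the share was 29.8% (23 to 37.3) in hippocampus DOCA-salt and 0.545% (0.0661 to 1.95) in hippocampus sham, and at or above that median 26.3% (22 to 30.9) in DOCA-salt and 1.53% (0.792 to 2.66) in sham. In cortex the shallower cells gave 27.9% in DOCA-salt and 1.07% in sham, and the deeper cells 27.2% in DOCA-salt and 1.54% in sham. In sham both depths held too few Cd59b UMIs to compare with each other.

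**Figure D2:**
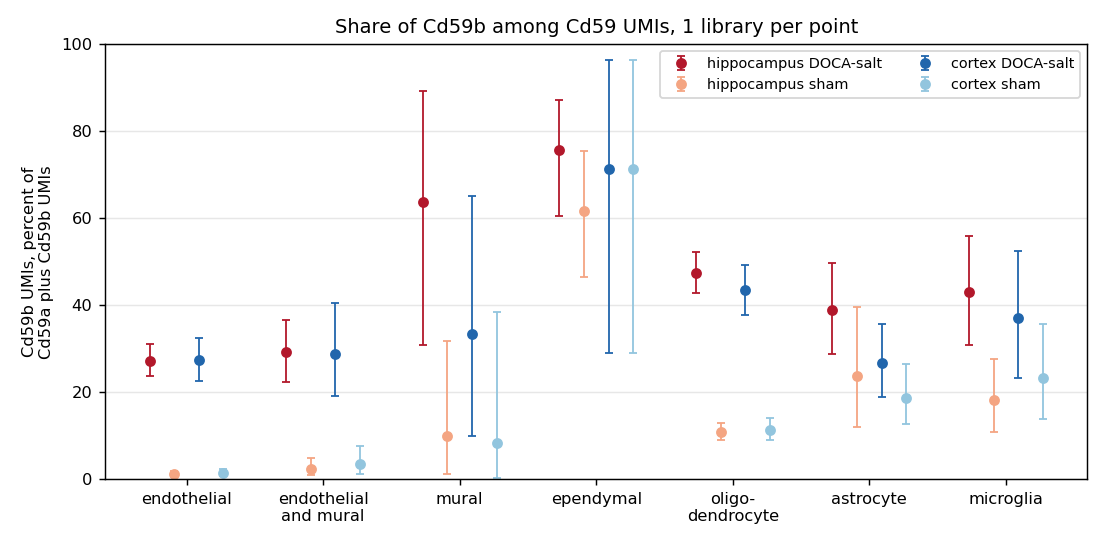
Cd59b UMIs as a percent of Cd59a plus Cd59b UMIs, by cell class and library, with exact 95% binomial intervals. Endothelial cells show 27.3% and 27.4% in the DOCA-salt libraries against 1.22% and 1.4% in sham, and ependymal cells lie above 60% in all 4.

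The same UMIs were then counted within single cells, so these counts add no support beyond the shares above. Among hippocampal endothelial cells with exactly 2 UMIs of the pair, 50 held Cd59a alone, 37 held both copies and 7 held Cd59b alone in DOCA-salt, against 119, 3 and 0 in sham. In cortex the counts were 20, 20 and 1 in DOCA-salt and 106, 2 and 0 in sham. With 3 or more UMIs, 74.4% of 39 hippocampus DOCA-salt cells held both copies, against 5.42% of 166 hippocampus sham cells. In cortex 65% of 20 DOCA-salt cells and 5.3% of 132 sham cells did. Most endothelial cells of the DOCA-salt libraries with that many UMIs thus held both copies at once.

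High Cd59 cells were scarce in the DOCA-salt libraries. At least 5 UMIs of the pair were found in 5 of 956 hippocampus DOCA-salt endothelial cells and in 47 of 858 hippocampus sham cells. In cortex 1 of 646 DOCA-salt cells and 29 of 679 sham cells reached that number. The most Cd59a UMIs in a cell were 5 in hippocampus DOCA-salt, 12 in hippocampus sham, 3 in cortex DOCA-salt and 9 in cortex sham. Among cells with any UMI of the pair, the mean number was 1.51 in hippocampus DOCA-salt, 2.2 in hippocampus sham, 1.35 in cortex DOCA-salt and 2.11 in cortex sham.

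**Figure D3:**
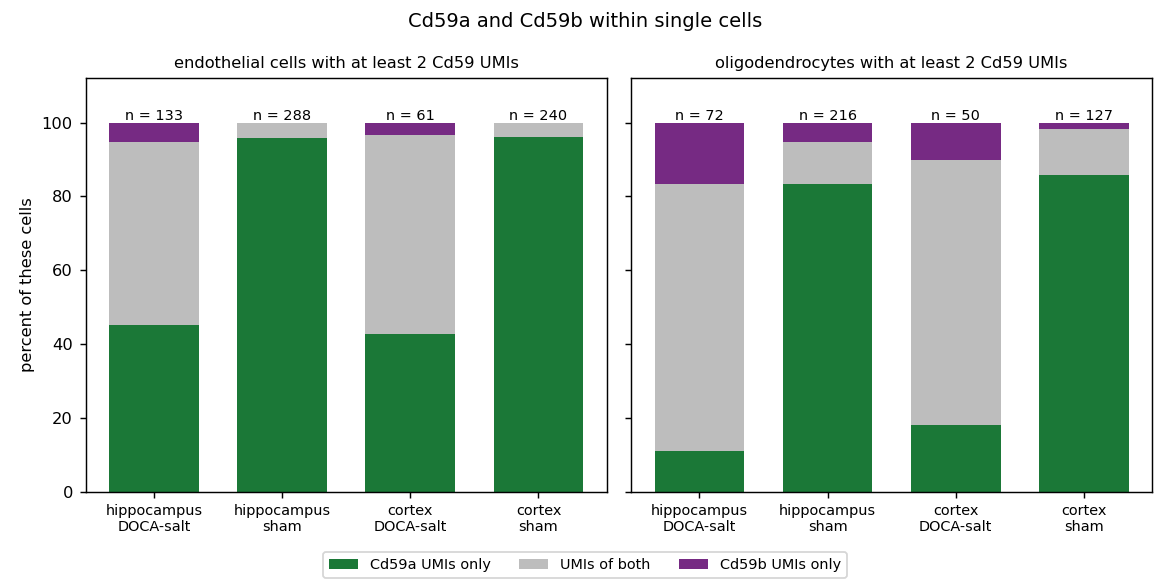
Endothelial cells (left) and oligodendrocytes (right) with at least 2 UMIs of the pair, split by whether these were Cd59a alone, both copies or Cd59b alone, as percent of the cells counted above each bar. Cells holding both copies make up 49.6% and 54.1% of DOCA-salt endothelial cells, against 4.17% and 3.75% of sham cells.

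Free RNA in droplets gives stray UMIs, so the fraction of cells with a UMI was read beside leukocytes other than microglia, which held 1 to 4 Cd59a UMIs and 1 to 3 Cd59b UMIs per library. Cd59a was found in 31.1% of hippocampus DOCA-salt and 61% of hippocampus sham endothelial cells, against 1.43% of leukocytes in DOCA-salt and 2.68% in sham. Each cell was then thinned to 2000 UMIs, which left out 97 to 154 endothelial cells and 15 to 33 leukocytes per library as too shallow. The hippocampal Cd59a values were then 17.2% in DOCA-salt and 42.7% in sham. In cortex, thinned endothelial cells gave 17.5% in DOCA-salt and 46.9% in sham. Thinned Cd59b was found in 6.48% of hippocampus DOCA-salt endothelial cells and 0.784% of leukocytes there, but in hippocampus sham in 0.566% of endothelial cells and 0.862% of leukocytes. The leukocyte value of hippocampus sham rests on 1 Cd59b UMI, too few to say whether the endothelial value lay above it. Without thinning, Cd59b was found in 1.52% (0.809 to 2.58) of hippocampus sham endothelial cells and 0.671% (0.017 to 3.68) of leukocytes. Whether leukocytes hold some transcripts of their own was not tested. In cortex DOCA-salt the thinned Cd59b values were 8.2% of endothelial cells and 0.685% of leukocytes. In cortex sham they were 0.71% of endothelial cells and 0 of 90 leukocytes, which allows a share of up to 3.33% of leukocytes with a UMI. Without thinning, Cd59b was found there in 1.91% (1.02 to 3.25) of endothelial cells and 0.952% (0.0241 to 5.19) of leukocytes. Median depth was 3892 and 3588 UMIs in hippocampal endothelial cells (DOCA-salt, sham), 3754 and 3868 in cortical ones, and 3660 to 4472 in the leukocytes.

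Markers of other cells were present in the endothelial gate and differed between libraries. All 8 oligodendrocyte markers were detected, with a summed level of 704 CPM in hippocampus DOCA-salt, 1238 in hippocampus sham, 571 in cortex DOCA-salt and 628 in cortex sham. The 8 ependymal markers, of interest because ependymal cells are rich in Cd59b, summed to 15 CPM in hippocampus DOCA-salt, 29.5 in hippocampus sham, 6.72 in cortex DOCA-salt and 5.03 in cortex sham. Of these, Pifo was at 0 in hippocampus DOCA-salt and Dynlrb2 in both cortex libraries, with Tmem212, Rsph1 and Pifo also at 0 in cortex sham. Neutrophil markers summed to 145 CPM in hippocampus DOCA-salt, 10.2 in hippocampus sham, 29.5 in cortex DOCA-salt and 21.5 in cortex sham, with 1, 4, 3 and 3 of 8 at 0 in these libraries, Cxcr2 among them in all but cortex sham. The 8 choroid plexus markers summed to 2.41 CPM in hippocampus DOCA-salt, where 3 of 8 were at 0 (Kl, Kcnj13 and Aqp1), and to 27.6 CPM in hippocampus sham, where none was. In cortex they summed to 1.12 CPM in DOCA-salt and 1.34 CPM in sham, with 5 of 8 at 0 in each. Lower in DOCA-salt in both tissues, as Cd59a was, were the oligodendrocyte, choroid plexus, erythroid and neuroblast markers. Erythroid markers summed to 295 CPM in DOCA-salt and 490 CPM in sham in hippocampus, with 2 of 8 at 0 in each. In cortex they summed to 113 CPM and 358 CPM, with 3 of 8 at 0 in each. Neuroblast markers summed to 19.1 CPM and 25.7 CPM in hippocampus, with 2 and 3 of 8 at 0. In cortex they summed to 11.9 CPM and 12.1 CPM, with 4 and 6 at 0. Higher in DOCA-salt in both tissues were the astrocyte markers, at 405 CPM in DOCA-salt and 195 CPM in sham in hippocampus and 1048 CPM and 828 CPM in cortex, with none of 8 at 0. So were the pericyte markers, at 579 CPM in DOCA-salt and 563 CPM in sham in hippocampus and 591 CPM and 328 CPM in cortex, and the microglial ones, at 498 CPM and 443 CPM in hippocampus and 477 CPM and 359 CPM in cortex, again with none at 0. Neuron markers summed to 131 CPM in DOCA-salt and 101 CPM in sham in hippocampus, with 2 of 8 at 0 in each, and to 128 CPM and 76.8 CPM in cortex, with 3 and 0 at 0. The neutrophil markers given above were likewise higher in DOCA-salt in both tissues, and so were those of monocytes or dendritic cells. The latter summed to 13.5 CPM and 4.14 CPM in hippocampus, with 1 and 3 of 8 at 0, and to 4.1 CPM and 3.69 CPM in cortex, with 4 and 5 at 0. The part of these cells in the Cd59 differences was not tested. Cells that passed both the endothelial and a mural gate, which can be vessel fragments, were kept apart. They gave a Cd59b share of 29.2% in hippocampus DOCA-salt and 2.45% in hippocampus sham, and 28.9% in cortex DOCA-salt and 3.55% in cortex sham.

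Mural cells, the pericytes and smooth muscle of the vessel wall, had few UMIs of the pair. Cd59a gave 4 UMIs in 151 hippocampus DOCA-salt cells and 18 in 133 hippocampus sham cells, and 8 in 143 cortex DOCA-salt cells and 11 in 92 cortex sham cells. Cd59b gave 7 UMIs in DOCA-salt and 2 in sham in hippocampus, and 4 in DOCA-salt and 1 in sham in cortex. The directions matched those of endothelium, but of the 4 ratios only that of Cd59a in hippocampus, 0.202 (0.0498 to 0.614), had an interval clear of 1.

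Oligodendrocytes, the myelin-forming cells, held 25.2% to 29.6% of the Cd59a UMIs and 37% to 50.3% of the Cd59b UMIs of each library. Endothelial cells held more of the Cd59a, 30.3% to 44.1%, and less of the Cd59b, 4.91% to 26.2%. Of all kept cells, 25.4% to 45.5% were oligodendrocytes and 5.69% to 8.5% endothelial. The oligodendrocyte part of Cd59b was below their share of cells in hippocampus sham, 42.1% against 45.5%, and above it in the other libraries. Levels in oligodendrocytes follow. Cd59a stood at 9.85 CPM (8.66 to 11.2, 246 UMIs) in hippocampus DOCA-salt and at 28 CPM (26.3 to 29.9, 977 UMIs) in hippocampus sham. In cortex it stood at 10.1 CPM (8.63 to 11.7, 169 UMIs) in DOCA-salt and at 31.5 CPM (29 to 34.1, 616 UMIs) in sham. These are DOCA-salt levels 2.85-fold lower (2.47 to 3.29) in hippocampus and 3.12-fold lower (2.63 to 3.72) in cortex, close to the folds in endothelium.

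Cd59b in oligodendrocytes was 8.93 CPM (7.8 to 10.2, 223 UMIs) in hippocampus DOCA-salt and 3.44 CPM (2.86 to 4.12, 120 UMIs) in hippocampus sham. In cortex it was 7.76 CPM (6.48 to 9.22, 130 UMIs) in DOCA-salt and 4.04 CPM (3.2 to 5.03, 79 UMIs) in sham. The ratios of 2.59 (2.07 to 3.27) in hippocampus and 1.92 (1.44 to 2.58) in cortex lay below those of endothelium, whose intervals did not reach that low. In a single random thinning to 2000 UMIs per cell, cortical oligodendrocytes kept 25 Cd59b UMIs in DOCA-salt and 23 in sham, and the log2 ratio was 0.21, against 0.94 without thinning and 1.01 as the mean over all thinnings. In the separate random draw used for the fractions of cells, Cd59b was found in 1.67% of DOCA-salt and 0.731% of sham cortical oligodendrocytes. The Cd59b levels of both sham libraries lay within the intervals of the leukocytes, 1.48 CPM (0.0376 to 8.26) in hippocampus sham and 2.01 CPM (0.0509 to 11.2) in cortex sham. Each of these intervals rests on 1 Cd59b UMI, so they are too wide to say whether oligodendrocytes lay above the leukocytes. Among oligodendrocyte genes with 20 or more UMIs, DOCA-salt was at least 2-fold higher for 3.47% of 15054 in hippocampus and for 2.78% of 13992 in cortex, and at least 2-fold lower for 1.64% in hippocampus and 1.21% in cortex. Cd59b had the 226th highest ratio in hippocampus and the 438th in cortex, where it did not reach 2-fold. Cd59a had the 110th lowest ratio in hippocampus and the 53rd lowest in cortex.

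The Cd59b share of oligodendrocyte UMIs was 47.5% (42.9 to 52.2) in hippocampus DOCA-salt and 10.9% (9.15 to 12.9) in hippocampus sham. In cortex it was 43.5% (37.8 to 49.3) in DOCA-salt and 11.4% (9.1 to 14) in sham. Sham oligodendrocytes thus carried a larger Cd59b share than sham endothelium, with no overlap of intervals in either tissue. Their Cd59b levels were alike, at 3.44 and 4.04 CPM (hippocampus, cortex) against 3.87 and 4.36 CPM in endothelium. All of these lay within the leukocyte intervals, which rest on 1 Cd59b UMI in each sham library and are too wide to tell them apart. The levels that differed were those of Cd59a, at 28 and 31.5 CPM in sham oligodendrocytes and 314 and 307 CPM in sham endothelium. Hippocampal oligodendrocytes with exactly 2 UMIs of the pair held Cd59a alone in 7 cells, both copies in 40 and Cd59b alone in 9 in DOCA-salt, against 118, 14 and 11 in sham. In cortex the counts were 7, 26 and 5 in DOCA-salt, and 64, 8 and 2 in sham. Cells with both copies were the most frequent kind in both DOCA-salt libraries. The sum of the pair was 18.8 CPM in DOCA-salt and 31.5 CPM in sham in hippocampus, a ratio of 0.597 (0.534 to 0.666), and 17.9 CPM in DOCA-salt and 35.5 CPM in sham in cortex, a ratio of 0.502 (0.437 to 0.576). Summed endothelial markers in the oligodendrocyte gate, 104 CPM in hippocampus DOCA-salt, 94.4 in hippocampus sham, 72.6 in cortex DOCA-salt and 73.5 in cortex sham, were far below their level of 11272 to 12626 CPM in endothelial cells. Choroid plexus markers there summed to 2.76 CPM in hippocampus DOCA-salt, with Aqp1 at 0, and to 24.5 CPM in hippocampus sham, and neutrophil markers to 122 CPM in DOCA-salt and 9.76 CPM in sham. In cortex the choroid markers summed to 2.51 CPM in DOCA-salt and 2.25 CPM in sham, with 2 of 8 at 0 in each, and the neutrophil markers to 23 CPM and 13 CPM, with 1 and 2 at 0. Smooth muscle markers were higher in DOCA-salt in both tissues, at 49.4 CPM in DOCA-salt and 27.8 CPM in sham in hippocampus and 48.3 CPM and 17.1 CPM in cortex. The same held for astrocyte markers, at 297 CPM and 158 CPM in hippocampus and 635 CPM and 479 CPM in cortex, and for microglial markers, at 429 CPM and 372 CPM in hippocampus and 372 CPM and 340 CPM in cortex, with none of these at 0. The part of these markers' cells in the oligodendrocyte values was not tested.

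**Figure D4:**
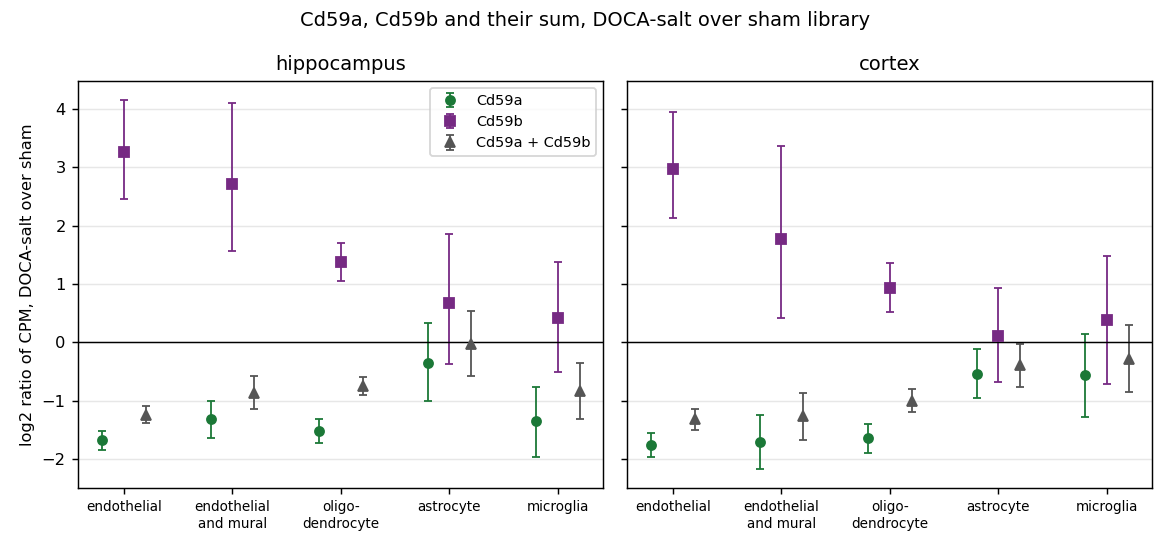
Log2 ratio of CPM, DOCA-salt over sham, for Cd59a, Cd59b and their sum in 5 classes of hippocampus (left) and cortex (right), with exact 95% intervals of counting error. Cd59a and the sum lie below 0 in endothelial cells and oligodendrocytes of both tissues and Cd59b above 0, while for Cd59b the astrocyte and microglia intervals include 0.

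Ependymal cells, the ciliated lining of the ventricles, differed from every other class by holding more Cd59b than Cd59a in all 4 libraries. In hippocampus, Cd59b gave 34 UMIs in 71 DOCA-salt cells and 29 in 62 sham cells, and Cd59a gave 11 in DOCA-salt and 18 in sham. The Cd59b share was 75.6% (60.5 to 87.1) in DOCA-salt and 61.7% (46.4 to 75.5) in sham, and the sham interval reached below 50%. Cd59b stood at 65.3 CPM in DOCA-salt and 58.9 CPM in sham, a ratio of 1.11 (0.656 to 1.89), an interval that lay below those of hippocampal endothelial cells and oligodendrocytes. The cortex libraries held 7 and 8 ependymal cells (DOCA-salt, sham), with 5 Cd59b and 2 Cd59a UMIs in each. In sham hippocampus, ependymal Cd59b at 58.9 CPM (39.4 to 84.5) was the highest level of that gene in any class with 50 or more cells there.

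Choroid plexus epithelium, which makes cerebrospinal fluid, could be described in hippocampus sham only. Its 281 cells held 871 Cd59a UMIs, 259 CPM (242 to 276), and 62 Cd59b UMIs, 18.4 CPM (14.1 to 23.6), a Cd59b share of 6.65% (5.13 to 8.44). One cell held 21 Cd59a UMIs, and 23.2% of all Cd59a UMIs of that library came from this class. The 3 choroid cells of hippocampus DOCA-salt held 2 Cd59a UMIs and 1 Cd59b UMI.

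In astrocytes and microglia the pair stood near the level of the leukocytes. Cd59a in astrocytes was 5.18 CPM in hippocampus DOCA-salt and 6.6 CPM in hippocampus sham, and 3.44 CPM in cortex DOCA-salt and 4.98 CPM in cortex sham, all within the intervals of the leukocytes. In microglia it was 2.31 CPM (1.63 to 3.18) in hippocampus DOCA-salt and 5.88 CPM (4.64 to 7.36) in hippocampus sham, and 2.2 CPM in cortex DOCA-salt and 3.23 CPM in cortex sham. The other leukocytes gave Cd59a at 2.68 CPM (0.731 to 6.87, 4 UMIs) in hippocampus DOCA-salt and 5.93 CPM (1.62 to 15.2, 4 UMIs) in hippocampus sham. In cortex they gave 1.36 CPM (0.0345 to 7.6, 1 UMI) in DOCA-salt and 4.02 CPM (0.487 to 14.5, 2 UMIs) in sham. The microglial difference was thus not separable from the leukocyte level, which rests on these few UMIs. Cd59b in astrocytes was 3.3 CPM in DOCA-salt and 2.06 CPM in sham in hippocampus, a ratio of 1.6 (0.776 to 3.62), and 1.25 CPM in DOCA-salt and 1.16 CPM in sham in cortex, a ratio of 1.08 (0.623 to 1.9). In microglia the Cd59b ratio was 1.33 (0.702 to 2.59) in hippocampus and 1.3 (0.612 to 2.8) in cortex. Depth did not allow a Cd59b difference of the oligodendrocyte size to be seen or excluded in hippocampal astrocytes.

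The smallest classes are given as counts. In erythroid cells, where CD59 is best known clinically in humans, Cd59a gave 0 UMIs in 93 hippocampus DOCA-salt cells and 11 UMIs in 36 hippocampus sham cells, and 3 UMIs in 42 cortex DOCA-salt cells and 1 in 29 cortex sham cells, so the tissues did not show the same direction. Cd59b gave 2 erythroid UMIs in each DOCA-salt library and 0 in each sham library. Cells of the neuron gate, which was led by Snhg11, Nhlh2, Syt1 and Reln, gave 7 Cd59a and 7 Cd59b UMIs in 89 hippocampus DOCA-salt cells, against 13 and 1 in 100 hippocampus sham cells. Oligodendrocyte precursors had no UMI of either copy in 8 to 15 cells per library, too few to set a useful limit. Fibroblasts, neuroblasts, border macrophages, monocytes or dendritic cells, T or NK cells, B cells and neutrophils held at most 3 UMIs of either copy per library. Of 8 hippocampal classes with at least 10 UMIs of the pair in both libraries, the Cd59b share was higher in DOCA-salt in 8, with intervals apart in 4, and of 6 such cortical classes it was higher in 6, with intervals apart in 3. These classes include endothelial cells, on which the pair was selected. They also include astrocytes and microglia, where the pair stood near the leukocyte level. Classes of a library can share its free RNA, so they do not count as separate agreements.

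Between tissues of the same treatment title the pair was closely matched in endothelial cells. The ratio of hippocampus to cortex was 1.08 (0.918 to 1.27) for Cd59a and 1.08 (0.825 to 1.41) for Cd59b in DOCA-salt, and 1.02 (0.936 to 1.12) and 0.887 (0.387 to 2.05) in sham. In oligodendrocytes Cd59a gave 0.977 (0.8 to 1.2) in DOCA-salt and 0.891 (0.804 to 0.987) in sham, and Cd59b 1.15 (0.923 to 1.44) and 0.853 (0.637 to 1.15). Over all cells Cd59a was 14.4 CPM in hippocampus and 9.71 CPM in cortex of DOCA-salt, a ratio of 1.49 (1.34 to 1.64), and 53.8 CPM in hippocampus and 30.6 CPM in cortex of sham, a ratio of 1.76 (1.67 to 1.86). The whole-tissue gap stands beside a different make-up: endothelial cells were 8.5% of cells in hippocampus and 5.69% in cortex of DOCA-salt, and 7.64% and 6.12% in sham, where the hippocampus also held the choroid cells.

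The genes around the pair were read next. Of 32 other genes annotated within 500 kb, 14 were in the files, and 7 had at least 20 UMIs in endothelial cells of each tissue. None of the 7 was 2-fold apart in either tissue, which is near the background of all genes (2.78% higher and 1.38% lower in hippocampus, 2.46% and 1.24% in cortex). The nearest measured gene upstream, Fbxo3, which encodes an F-box protein, gave 167 UMIs in DOCA-salt and 173 in sham in hippocampus, a ratio of 0.844 (0.678 to 1.05), and 102 and 139 in cortex, a ratio of 0.817 (0.626 to 1.06). The nearest measured gene downstream, the kinase gene Hipk3, gave a ratio of 1.02 (0.845 to 1.22) in hippocampus and 1.11 (0.895 to 1.39) in cortex. Lmo2, a transcriptional cofactor of blood and vessel lineages, was higher in DOCA-salt, with a ratio of 1.43 (1.3 to 1.57) in hippocampus and 1.5 (1.35 to 1.67) in cortex. The other measured neighbours were Nat10, with a ratio of 1.63 (0.948 to 2.87) in hippocampus and 1.06 (0.566 to 2) in cortex, Caprin1, with 1.11 (0.947 to 1.31) and 1.27 (1.04 to 1.55), 4931422A03Rik, with 1.31 (0.636 to 2.79) and 1.97 (0.957 to 4.23), and Cstf3, with 1.09 (0.844 to 1.4) and 1.08 (0.825 to 1.42). In oligodendrocytes 1 of 8 measured neighbours passed 2-fold, on the lower side in both tissues. Of all oligodendrocyte genes tested, 3.47% were at least 2-fold higher and 1.64% lower in hippocampus, and 2.78% and 1.21% in cortex. The neighbour was D430041D05Rik, with 15 UMIs in DOCA-salt and 60 in sham in hippocampus, a ratio of 0.349 (0.184 to 0.622). In cortex it gave 11 and 73 UMIs, a ratio of 0.176 (0.0842 to 0.334).

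**Figure D5:**
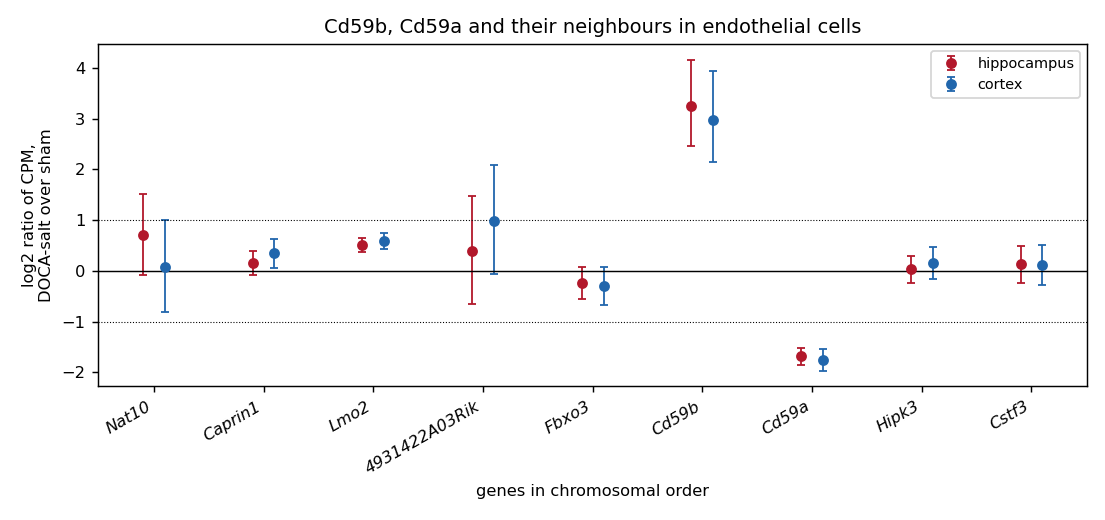
Log2 ratio of endothelial CPM, DOCA-salt over sham, for Cd59b, Cd59a and the 7 neighbours with at least 20 UMIs in each tissue, in chromosomal order and not to scale; bars are exact 95% intervals of counting error and dotted lines mark 2-fold. Only the pair lies outside the dotted lines, Cd59b above and Cd59a below.

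Lists of related genes were read against the share of all endothelial genes past 2-fold, 2.78% higher and 1.38% lower in hippocampus and 2.46% higher and 1.24% lower in cortex. With so few members measured, none or 1 past that line is close to background. Of 15 complement regulators, 7 were measured in hippocampus, with none 2-fold apart and a median log2 ratio of 0.15, and 8 in cortex, with none higher, 1 lower and a median of 0.02. Cr1l, the mouse regulator of C3 and C4 cleavage on cell membranes (Crry), had a ratio of 1.1 (0.978 to 1.24) in hippocampus and 0.971 (0.842 to 1.12) in cortex. Clu, the secreted inhibitor of terminal complement, gave 1.75 (1.6 to 1.91) in hippocampus and 1.06 (1 to 1.11) in cortex. Clu stood at 360 CPM in DOCA-salt and 206 CPM in sham in hippocampus and at 1121 CPM and 1061 CPM in cortex, and the astrocyte markers in the same gate ran in the same order of libraries, a part in the Clu values that was not tested. Vtn, which encodes vitronectin and is also a leading gene of the mural gate, gave 0.871 (0.779 to 0.974) in hippocampus and 1.41 (1.2 to 1.66) in cortex. Cd55, decay-accelerating factor, was the lower one in cortex, with 8 UMIs in DOCA-salt and 20 in sham, a ratio of 0.445 (0.17 to 1.06), and stood at 21 and 20 UMIs in hippocampus. Of the terminal components that CD59 blocks, none of the 6 genes present in the files was measured in endothelial cells.

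GPI anchors are needed by both copies. All 24 measured genes of anchor synthesis and attachment lay within 2-fold in endothelial cells of both tissues, near the background given above, with a median log2 ratio of -0.06 in hippocampus and -0.03 in cortex. Dpm1 and Dpm3, subunits of the enzyme that makes the mannose donor of the anchor, had the most UMIs. Dpm3 gave a ratio of 1.01 (0.902 to 1.13) in hippocampus and 0.953 (0.832 to 1.09) in cortex, and Dpm1 gave 1.08 (0.957 to 1.22) in hippocampus and 0.971 (0.839 to 1.12) in cortex. Among other GPI-anchored surface proteins 1 of 10 was higher in hippocampus, where 2.78% of all genes were, namely Cd48, with 22 UMIs in DOCA-salt and 7 in sham. In cortex, of 9 measured and beside 2.46% of all genes higher and 1.24% lower, the leukocyte gene Cd52 was higher, with 41 UMIs in DOCA-salt and 17 in sham, and the interferon-induced Bst2 was lower, with a ratio of 0.492 (0.436 to 0.556). Bst2 stood at 0.508 (0.462 to 0.558) in hippocampus. Prnp, the prion protein gene, gave 1.33 (1.22 to 1.45) in hippocampus and 1.26 (1.15 to 1.38) in cortex. The medians of this list were 0.37 in hippocampus and 0.24 in cortex.

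Of 27 other genes with the LU domain, 7 were measured in endothelial cells of each tissue, with none past 2-fold in hippocampus and 1 in cortex, again near background, and with medians of -0.15 in hippocampus and -0.14 in cortex. The endothelial Ly6 genes Ly6a and Ly6c1, far more abundant in UMIs than the pair, gave ratios of 0.874 (0.856 to 0.892) and 0.87 (0.857 to 0.884) in hippocampus, and 0.815 (0.795 to 0.836) and 0.828 (0.813 to 0.844) in cortex. Lypd6 in cortex was at the 2-fold line, with 36 UMIs in DOCA-salt and 20 in sham. In oligodendrocytes none of 26 measured GPI anchor genes was 2-fold apart in either tissue, beside 3.47% of all genes higher and 1.64% lower in hippocampus and 2.78% and 1.21% in cortex, with medians of -0.03 in hippocampus and -0.1 in cortex, beside 0.06 and 0.03 for all genes tested. Of the regulators there, 1 of 11 was lower in hippocampus, the C1 inhibitor Serping1, with 6 UMIs in DOCA-salt and 28 in sham, and none of 8 was apart in cortex. C8g, the only terminal component measured, gave 29 UMIs in DOCA-salt and 14 in sham in hippocampus, a ratio of 2.89 (1.48 to 5.92), and 15 and 20 in cortex, a ratio of 0.876 (0.417 to 1.8). The LU genes past 2-fold in oligodendrocytes were Ly6c2 in hippocampus, with 32 UMIs in DOCA-salt and 7 in sham, and Ly6h in cortex, with 23 and 5, of 13 and 12 measured. Ly6h ran the other way in hippocampus, with 46 UMIs in DOCA-salt and 114 in sham, a ratio of 0.563 (0.391 to 0.8). No other GPI-anchored gene was apart there, of 14 measured in hippocampus and 13 in cortex.

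Likeness across cell types was measured as Pearson's r of log2(CPM + 1) over 24 units, the 6 classes with at least 50 cells in every library times 4 libraries, among 14554 genes. The units share libraries and classes, so r is a description. The genes most like Cd59a were Cavin2 (r = 0.948), Slc1a1 (0.942), Sema7a (0.937), Slc9a3r2 (0.926) and Thsd1 (0.915). Cavin2, a coat protein of caveolae, was, like Cd59a, higher in endothelial cells than in oligodendrocytes, and higher in oligodendrocytes than in astrocytes and microglia, in every library. In endothelial cells it stood at 308 CPM in DOCA-salt and 301 CPM in sham of hippocampus and at 247 CPM and 282 CPM in cortex. Slc9a3r2, a membrane scaffold, was lower in DOCA-salt, with 1012 CPM in DOCA-salt and 1577 CPM in sham in hippocampus and 952 CPM and 1642 CPM in cortex. Sema7a, a GPI-anchored semaphorin, gave 302 CPM in DOCA-salt and 379 CPM in sham in hippocampus, and 272 CPM and 390 CPM in cortex.

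Genes most like Cd59b reached lower values: Lypd1 (r = 0.862), Nol7 (0.849), Cetn2 (0.837), Dph3 (0.813) and Pop5 (0.812). Border macrophages, 1 of the classes used, held at most 1 Cd59b UMI per library, and mural cells held 1 to 7. The r values of Cd59b and their order thus rest partly on levels near the floor. Lypd1, itself an LU gene, stood at 30.4 CPM in DOCA-salt and 24.3 CPM in sham endothelial cells of hippocampus, and at 23.5 CPM and 26.8 CPM in cortex, without the treatment gap of Cd59b. For the sum of both copies the leading genes were Slc9a3r2 (0.966), Cavin2 (0.961), Sema7a (0.957), 4931406P16Rik (0.952) and Slc1a1 (0.949). Cd59a and Cd59b had an r of 0.555 with each other.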

How the data were processed

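The deposited files are matrices of UMI counts per gene and barcode, 1 per library, and the authors' processing is named only as fastp, STAR, Subread and Seurat on GRCm38, per the submitters' processing notes, with no versions, annotation release or counting strand. The counts are raw, which the whole-number values bear out. Of the 32285 gene IDs, 32158 matched GENCODE vM21. Barcodes needed 300 detected genes, with mitochondrial UMIs capped at 20% of their total, and classes came from gates on 18 lists of 8 markers. Pericyte and smooth muscle gates were joined as mural. Cells passing several gates were set aside, which stands in for doublet removal, since no doublet caller was run. UMIs were summed per class and library. Levels are CPM of the class total, with exact Poisson intervals; shares have exact binomial (Clopper-Pearson) intervals; ratios have exact intervals conditional on the sum of both counts, all at 95%. Fold counts used genes with at least 20 UMIs over both libraries and a 2-fold line. The interval code was tested on simulated data. The intervals cover counting error only, and free RNA and read placement add error to them.

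The genes, lists, markers and comparisons were chosen with earlier results of these data known, and nothing here is independent support for a pattern found before. The like genes are the 5 with the highest r, and list members were named by their UMI numbers and, where 5 or fewer passed the 2-fold line, because they passed it. Some genes that these rules would name are not reported here. Alternatives covered the cell filter, the gates, thinning, weighting per cell and scaling. A gate level of 0.2 and the mean over all thinnings were added after the data were seen. Promoters are from RefSeq (GRCm38.p6), both members matched, and exons from GENCODE vM21. Python 3.11.15, numpy 2.4.6, scipy 1.17.1, pandas 2.3.3, Biopython 1.88 and matplotlib 3.10.9 were used.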

Additional observations from a re-analysis of the deposited data

How the results depend on the processing

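No paired analysis was possible because each group held 1 library. Of 804 recomputed values of the pair under other cell filters, gates, weights, scalings and depths, in 5 classes, 781 moved by less than counting error, 23 moved by more and none reversed beyond counting error. In endothelial cells the log2 ratio of DOCA-salt to sham ranged from 3.19 to 3.59 for Cd59b and from -1.72 to -1.61 for Cd59a in hippocampus, and from 2.84 to 3.48 and from -1.92 to -1.73 in cortex. A single random thinning of cells to 2000 UMIs left 49 and 38 Cd59b UMIs in hippocampal oligodendrocytes (DOCA-salt, sham) and 25 and 23 in cortical ones. In that draw the oligodendrocyte Cd59b share was 39.8% in hippocampus DOCA-salt and 30.1% in cortex DOCA-salt, and the log2 ratio of DOCA-salt to sham was 0.83 in hippocampus and 0.21 in cortex for Cd59b and -1.27 in cortex for the sum. The log2 ratio of hippocampus to cortex was 0.58 for Cd59b in DOCA-salt and -0.32 for Cd59a in sham. The mean over all possible draws gave Cd59b log2 ratios of 1.24 in hippocampus and 1.01 in cortex. The loosely counted astrocytes, microglia and cells passing both the endothelial and a mural gate gave 16 of the moved values, 2 of them under equal weight per cell. With no UMI minimum, genes at least 2-fold higher and lower numbered 2687 and 2056 in hippocampal endothelial cells, against 326 and 162 with the minimum of 20, and 2686 and 1911 in cortical ones, against 276 and 139. With a minimum of 100 UMIs they numbered 64 and 43 in hippocampus and 31 and 30 in cortex. In oligodendrocytes the counts were 2862 and 2187 with no minimum, 523 and 247 with 20 and 145 and 71 with 100 UMIs in hippocampus, and 2817 and 2063, 389 and 169, and 97 and 50 in cortex. The cause of the moves with a single draw was not tested; fewer genes are tested under a higher minimum. With 1 library per group, whose treatment labels disagree for 2 libraries, no spread between mice is known.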
